A study of Mus musculus with 16 samples.

Results

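Transcripts of the splicing factors and heterogeneous nuclear ribonucleoproteins (hnRNPs) were compared between young and aged microglia, the macrophages that live in the brain tissue, after sorting from mouse hippocampus. The members were all rows of the deposited expression table whose symbol begins with Srsf or Sf3a or Sf3b and a digit, with Hnrnp, or with Snrp and one of the letters a to g or a digit, leaving out pseudogene symbols. This rule took 51 of the 24015 rows and used no expression value. It gave 11 serine- and arginine-rich (SR) proteins, 20 hnRNP proteins, 9 subunits of the SF3A and SF3B complexes, 7 Sm ring subunits and 4 other proteins of the U1 and U2 particles.

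The young group was 6 samples from mice aged 3 months and the aged group 6 samples from mice aged 20 months, with no treatment or mutation named for either. Cells were sorted alive as CD11b-positive and CD45-low after dissociation and magnetic removal of myelin, and 4 of the samples (young 2, young 4, aged 3 and aged 6) combine 2 technical replicate libraries. The strain is given as C57BL/6 except for aged 5 (C57BL/7) and aged 6 (C57BL/8 and C57BL/9). The labels leave unstated if animals were pooled, so the p-values cover the spread among these 12 samples and nothing wider.

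The spliceosome removes introns from new transcripts. Its U1 particle recognises the start of an intron and its U2 particle the branch point, where SF3A and SF3B hold U2 in place. A ring of 7 Sm proteins forms the core of the U1 and U2 particles. SR proteins bind exons and mostly favour their inclusion, while many hnRNPs bind exons or introns and often oppose it, so the balance of the SR proteins and hnRNPs influences which exons are kept. Many genes of both families are known to adjust their own level through a splice form that is destroyed by nonsense-mediated decay. A count per gene sums these forms, so the values below describe how much transcript of each gene was present, not how it was spliced.

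Several hnRNP genes have processed pseudogenes, intron-less copies of their messenger RNA elsewhere in the genome, and a read from a stretch that the gene and a copy share cannot be placed by its sequence. The coding sequences of 3 related hnRNPs of the A and B type are shown beside their closest annotated copy, because these genes lie at opposite ends of the order of levels given further on. Sequences are from GENCODE M21 on GRCm38 (mm10), from the start codon for Hnrnpa1 and Hnrnpa2b1 and from coding base 75 to 194 for Hnrnpa3, with capitals marking the bases at which gene and copy differ.
Hnrnpa1: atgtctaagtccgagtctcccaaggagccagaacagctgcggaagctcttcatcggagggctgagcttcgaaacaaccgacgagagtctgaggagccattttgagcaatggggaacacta
Gm10052: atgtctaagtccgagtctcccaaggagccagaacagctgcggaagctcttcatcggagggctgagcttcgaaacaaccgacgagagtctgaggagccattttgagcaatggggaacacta
Hnrnpa3: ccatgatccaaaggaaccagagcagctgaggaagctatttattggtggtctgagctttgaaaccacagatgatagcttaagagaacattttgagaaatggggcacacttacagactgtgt
Gm5641: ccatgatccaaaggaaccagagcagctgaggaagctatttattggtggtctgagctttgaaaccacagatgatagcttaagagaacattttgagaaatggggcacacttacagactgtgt
Hnrnpa2b1: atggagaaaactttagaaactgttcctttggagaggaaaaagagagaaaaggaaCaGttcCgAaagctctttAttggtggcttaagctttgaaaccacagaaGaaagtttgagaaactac
Gm5778: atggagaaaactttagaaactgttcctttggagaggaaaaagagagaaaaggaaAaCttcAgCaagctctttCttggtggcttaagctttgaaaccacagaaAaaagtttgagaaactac
Each window is the first stretch of 120 coding bases that aligns with the copy without a gap. Differences by gaps therefore lie outside it. Hnrnpa1 (chr15:103240432-103246692, plus strand) and Gm10052 (chr9:123689233-123690192, minus strand) did not differ within it. Over all 1119 coding bases they differed at 159 positions, none of them a substitution. Hnrnpa3 (chr2:75659261-75669407, plus strand) and Gm5641 (chr3:54481438-54482925, plus strand) also matched throughout the window, with 47 differences over 1137 coding bases, of which 9 were substitutions. Hnrnpa2b1 (chr6:51460932-51469894, minus strand) and Gm5778 (chr10:73201695-73202766, plus strand) differed at 6 bases of the window and at 69 of 1059 coding bases. The row of Gm10052 in the expression table stood at 0 normalized counts in all 12 samples.

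Among the 8 samples with 1 library, depth ranged from 11.4 M reads in young 1 to 47.3 M in young 5. The sorted cells matched their label: the summed level of 12 microglial markers was 70669 to 76422 CPM, a share of the sample total, at 3 months and 64236 to 70387 CPM at 20 months. Each of 10 marker lists of other cells summed to at most 283 CPM in any sample, with the endothelial marker Tek at 0 throughout. The choroid plexus list, of which all 8 genes were detected, summed to 9.97 to 49.4 CPM at 3 months and 16.7 to 132 CPM at 20 months.

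None of the members was called different between the ages. Of the 51 members, 48 passed the filter of at least 10 normalized counts in at least 6 samples, and 0 of these 48 were called higher or lower in aged microglia (limma, two-sided, Benjamini-Hochberg adjusted p under 0.05 over all tested genes). The same fit called 1.73% of the 11579 genes tested, 147 higher (1.27%) and 53 lower (0.458%). At an unadjusted p under 0.05 stood 3 members, Hnrnpll, Hnrnpul2 and Srsf11, or 6.25% of the 48, against 10.8% of all genes tested. No member had 6 aged values that were all above or all below the 6 young values, against 1.87% of all genes. On whole reads recovered from 7 samples, edgeR and DESeq2 each called 0 members, against 0.881% and 2.03% of all genes, and each placed 3 members at an unadjusted p under 0.05, against 8.93% and 9.46%. With limma on the same 7 samples, 0 members were called (0.760% of all genes) and 2 had an unadjusted p under 0.05 (8.77%). In sorted bulk samples, fewer cells of a type and less RNA per cell cannot be told apart. Leaving out young 3 raised the count of members at a limma unadjusted p under 0.05 from 3 to 7. Leaving out aged 3 raised it to 5. Of all 11579 genes, 1253 stood there in the main fit, 1268 without young 3 and 1069 without aged 3. Without young 1, young 5, aged 1 or aged 2 the member count was 1. The counts of all genes in those fits were 1099, 1041, 1183 and 1139.

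The differences themselves were small. Fold changes are differences of mean log2 values (normalized count plus 1), aged minus young. They ran from -0.27 for Hnrnpa3 to 0.50 for Hnrnpul2, with a median of 0.05 over the 48 members and 0.0016 over all genes tested. They were above 0 in 33 members and below in 15, and of all genes tested 50.5% were above. This median lay between 0.02 and 0.07 with any 1 sample left out, falling to 0.02 without aged 2 or young 1 and to 0.03 without aged 6. It was 0.07 without aged samples 5 and 6. With the summed markers of brain cells other than microglia as a covariate it was 0.10, and 0 members were called by limma. Among genes described below, that covariate took Snrpg from 0.23 to 0.65, Snrpc from 0.23 to 0.57, Srsf4 from 0.30 to 0.45 and Hnrnpk from -0.03 to -0.15. It was negative in the 3 fits limited to the 7 samples with recovered reads, at -0.01 with edgeR, -0.01 with DESeq2 and -0.02 with limma. By role the medians were 0.08 for SR proteins (9 of 10 above 0), 0.0025 for hnRNPs (10 of 19), 0.05 for SF3A and SF3B (7 of 9), 0.06 for the Sm ring (4 of 6) and 0.03 for the other U1 and U2 proteins (3 of 4).

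How large a difference these samples leave room for depended on the level of the gene. The 95% interval of the difference lay within 1.5-fold in either direction for 41 of the 48 members (85.4%), against 74.3% of all genes tested. It lay within 1.2-fold for 21 members (43.8%, against 22.9%). Among the 33 members with a mean of at least 1000 normalized counts, 33 had intervals within 1.5-fold and 20 within 1.2-fold (60.6%), against 97.0% and 47.3% of all genes at that level. Of the 15 tested members below 1000, 8 had intervals within 1.5-fold and 1 within 1.2-fold. The spread within an age followed the same division, with a median SD of 0.15 on the log2 scale at or above 1000 counts and 0.38 below. In the plot of fold changes the widest intervals belong to Snrpc, Hnrnpa0, Snrpg and Hnrnph3, which are all low in these cells.

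**Figure D1:**
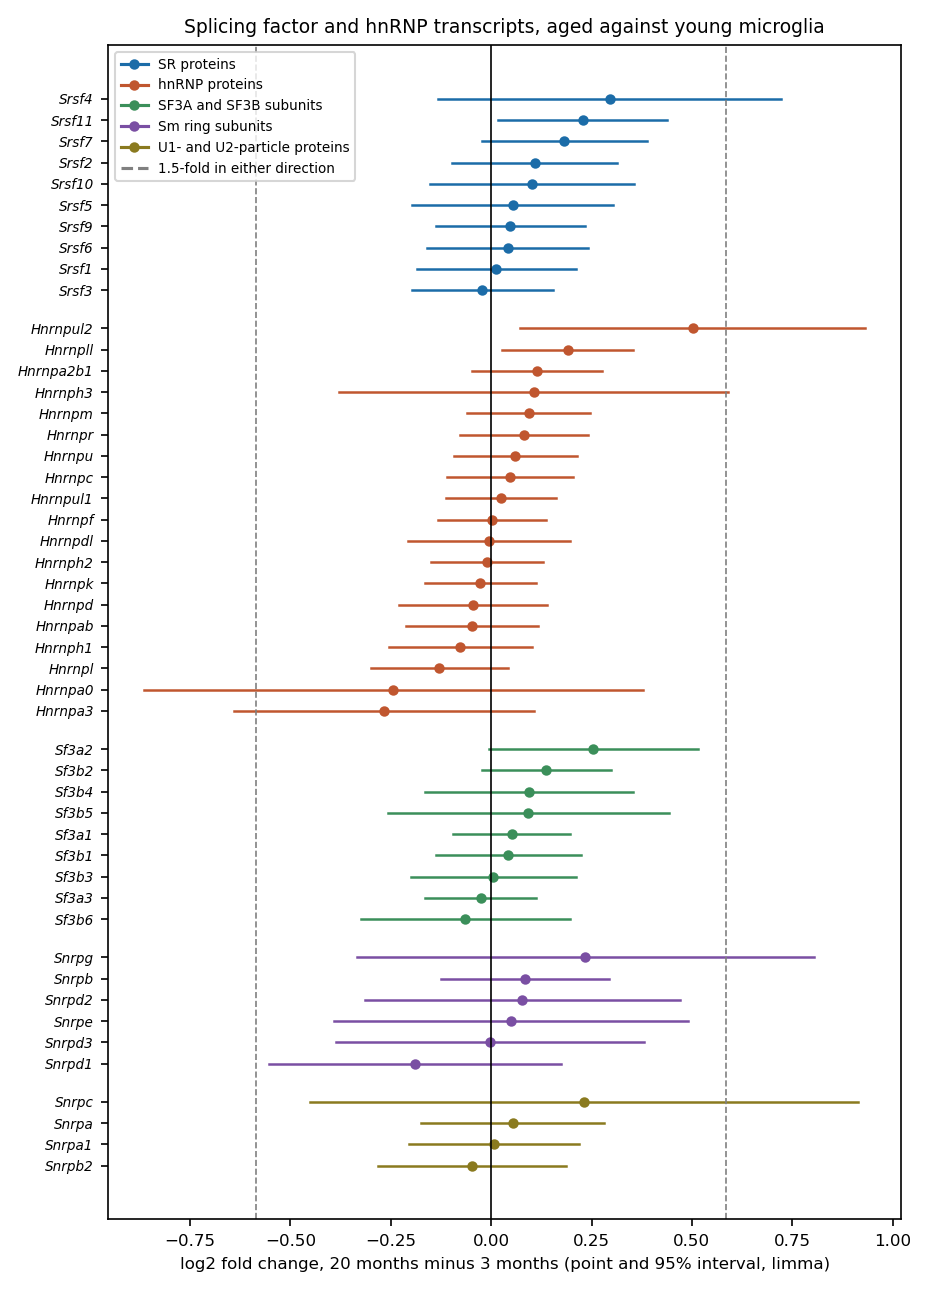
Log2 fold change of each of the 48 tested members, aged minus young, as a point with its 95% interval from limma (horizontal axis), grouped and coloured by role; dashed lines mark 1.5-fold in either direction. The points run from -0.27 for Hnrnpa3 to 0.50 for Hnrnpul2, and 41 of the 48 intervals stay between the dashed lines.

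Among the SR proteins, 10 of 11 were tested and 0 were called. Srsf11, an SR-related protein, ran from 2463 to 4032 normalized counts at 3 months (median 2847) and from 3026 to 3746 at 20 months (median 3485). All 6 aged samples lay above young 1, 2, 4 and 5, while young 3 lay above every aged sample. The means were 2990.2 ± 554 and 3465 ± 251 (SD, n = 6 each), a log2 difference of 0.23 ± 0.10 (SE), limma adjusted p = 0.396. Leaving out young 3 gave a log2 difference of 0.32 with a limma adjusted p of 0.0567, the smallest adjusted p of any member in any of 28 alternative analyses. Over all of these the adjusted p of Srsf11 ran from 0.0567 to 0.879.

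Srsf7, which also carries messenger RNA out of the nucleus, ran from 3847 to 6156 at 3 months (median 4550.4) and from 4617 to 5757 at 20 months (median 5280.4). Young 3 was again above every aged sample, and the ages overlapped. Its log2 difference was 0.18 ± 0.10 (limma adjusted p = 0.548). Srsf4, one of the largest SR proteins, was far lower, at 147 to 438 normalized counts (median 285) against 246 to 410.3 (median 352). Young 1 had its lowest and young 3 its highest value, so that the young samples enclosed the aged ones. The log2 difference of Srsf4 was 0.30 ± 0.20 (limma adjusted p = 0.716), or 0.12 without young 1 and 0.43 without young 3. For Srsf4, 65.4% of the 50-base windows of its main transcript are also part of Gm12992, a transcript annotated on the opposite strand.

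Srsf5 had the most counts of the SR genes, at 5665 to 7201 (median 5975) in young and 4282 to 7857 (median 6694) in aged samples. The aged samples spread further than the young ones in both directions, with aged 1 lowest and aged 2 highest. The log2 difference was 0.05 ± 0.12 (limma adjusted p = 0.935), and was -0.0058 without aged 2. Srsf1, Srsf2, Srsf3, Srsf6, Srsf9 and Srsf10 had log2 differences between -0.02 for Srsf3 and 0.11 for Srsf2. Srsf1 and Srsf2, the best known exon-binding SR proteins, had 2179.8 ± 272 and 4392 ± 508 normalized counts at 3 months, and 2197 ± 244 and 4746 ± 646 at 20 months (SD, n = 6). Young 3 held the highest young value of 8 of the 10 tested SR genes.

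Among the hnRNPs, 19 of 20 were tested and 0 were called. Hnrnpll, known for regulating the splicing of Ptprc, the gene of CD45, in lymphocytes, ran from 993 to 1169 normalized counts at 3 months (median 1113) and from 1113 to 1333 at 20 months (median 1243). In 5 of the 6 aged samples it was above every young sample, and aged 4 lay below young 1, 2 and 3. The means were 1090.4 ± 79.3 and 1244 ± 75.6 (SD, n = 6 each), with a log2 difference of 0.19 ± 0.08 (SE, 95% interval 0.03 to 0.35) and a limma adjusted p of 0.334.

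Hnrnpul2, a relative of the nuclear scaffold protein Hnrnpu, ran from 113 to 241 at 3 months (median 148) and from 149 to 302 at 20 months (median 217). Aged 2 and aged 6 were above all young samples, while aged 4 was below young 3, 4 and 5. The means were 159.9 ± 46.5 and 226 ± 60.1 (SD, n = 6 each). This was the largest difference of the 48 members, 0.50 ± 0.20 on the log2 scale (95% interval 0.07 to 0.93), with a limma adjusted p of 0.335. Hnrnpu itself, which binds RNA and chromatin, stood at 11077 ± 704 and 11579.5 ± 1161 normalized counts, a log2 difference of 0.06 ± 0.07.

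Hnrnpl, which binds CA-rich RNA and is the closest relative of Hnrnpll, was 1 of the 15 members with a difference below 0. It ran from 2892 to 3363 in young samples (median 3115) and from 2276 to 3155 in aged ones (median 2919). Aged 3, 4 and 5 lay below all young samples, and aged 6 lay above the young median. The log2 difference was -0.13 ± 0.08 (limma adjusted p = 0.662). Hnrnpk, which binds C-rich RNA, had the most counts of all members, at 15083 to 17101 (median 16234) and 14405 to 18061 (median 15243). Aged samples held both the lowest and the highest value, and the log2 difference was -0.03 ± 0.07 (limma adjusted p = 0.938), or 0.0089 after quantile normalization. Hnrnpa2b1, a packaging hnRNP of the A and B type, had 7465 ± 676 and 8083 ± 778 normalized counts (log2 difference 0.11 ± 0.08). The remaining 13 tested hnRNPs had log2 differences from -0.27 for Hnrnpa3 to 0.11 for Hnrnph3.

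The SF3A and SF3B complexes, which anchor the U2 particle at the branch point, had 9 of 9 subunits tested and 0 called. Sf3a2 ran from 822 to 1204 normalized counts at 3 months (median 1045) and from 945 to 1557 at 20 months (median 1171). Aged 1, 2 and 6 lay above all young samples and the other 3 aged samples lay among them. Its log2 difference was 0.25 ± 0.12 (limma adjusted p = 0.479). Sf3b2 ran from 4472 to 5673 (median 5006) and from 4887 to 6183 (median 5343), and 2 aged samples exceeded all young ones. It differed by 0.14 ± 0.08 on the log2 scale (limma adjusted p = 0.579). Its partner Sf3b4 ran from 1368 to 2169 (median 1511) and from 1493 to 2156 (median 1729.5), and young 3 had the highest value of all 12 samples. The log2 difference of Sf3b4 was 0.09 ± 0.12 (limma adjusted p = 0.88), and was -0.07 with edgeR on the 7 samples with recovered reads.

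Sf3b1, the subunit that grips the branch point, had the most counts of this complex, from 8707 to 11661 at 3 months (median 9983) and from 8388 to 12044 at 20 months (median 10699). The aged samples enclosed the young ones, with aged 6 lowest and aged 5 highest. The log2 difference was 0.04 ± 0.09 (limma adjusted p = 0.928) and -0.0016 without aged 5. Sf3a3 was the steadiest of the young values, at 1683 ± 29.3 against 1655 ± 97.4 normalized counts (SD, n = 6).

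Of the 7 Sm ring subunits, 6 were tested and 0 called. Snrpb, which encodes the SmB protein, was by far the most abundant, at 2831 to 4126 (median 3680.4) in young and 3199 to 4641 (median 3772) in aged samples. Aged 6 lay above all young samples and young 1 below all aged ones, and the log2 difference was 0.08 ± 0.10 (limma adjusted p = 0.866). Snrpd1 ran from 191 to 283 (median 233) and from 139 to 257 (median 223). Aged 4 and aged 5 lay below every young sample, and the log2 difference was -0.19 ± 0.17 (limma adjusted p = 0.81). It was -0.08 without aged 4, -0.10 without aged 5, and from -0.49 to -0.46 in the 3 fits on the 7 samples with recovered reads. Snrpg ran from 77.1 to 160.1 (median 107) and from 57.5 to 187 (median 137), with aged 5 below and aged 1 and 2 above all young samples. Its log2 difference was 0.23 ± 0.27 (limma adjusted p = 0.862), and was -0.04 with limma on the 7 samples with recovered reads.

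The 4 other U1 and U2 proteins were tested and none was called. Snrpc, the U1-C protein that helps U1 bind the start of the intron, ran from 83.5 to 288 (median 128) and from 81.1 to 279 (median 190.4). The range was nearly the same at both ages, with young 5 highest and aged 5 lowest. The log2 difference was 0.23 ± 0.32 (limma adjusted p = 0.89), and -0.25 with edgeR on the 7 samples with recovered reads. Snrpa, the U1-A protein, ran from 1310.1 to 1841 (median 1513) and from 1197 to 1757 (median 1644), with a log2 difference of 0.05 ± 0.11 (limma adjusted p = 0.929). In Snrpa, aged 5 lay below all other samples of both ages. Snrpb2 and Snrpa1 encode a pair of U2 proteins that bind as a unit. Snrpb2 ran from 577 to 852 (median 755) and from 610.3 to 841 (median 695), and Snrpa1 had 635 ± 49.8 and 641 ± 78.5 normalized counts. Their log2 differences were -0.05 ± 0.11 (limma adjusted p = 0.938) and 0.01 ± 0.10, and both genes overlapped between the ages.

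The summed transcripts of each role overlapped between the ages. All 51 members together amounted to 4706 to 5507 CPM in young samples (median 5137) and 5174 to 5788 CPM in aged samples (median 5279). The SR genes summed to 1332 ± 122 CPM at 3 months and 1427 ± 98.7 CPM at 20 months (SD, n = 6 each). The hnRNP genes summed to 2500.3 ± 84.6 and 2566 ± 80.1 CPM. In both sums 5 of the 6 aged samples lay within the young range and aged 2 lay above it. The SF3A and SF3B genes summed to 999.9 ± 36.8 and 1057 ± 58.3 CPM, and there 4 of the 6 aged samples (aged 1, 2, 4 and 5) lay above the highest young sample, at 1044 CPM. The Sm ring genes summed to 184 ± 29.1 and 195 ± 30.3 CPM, and the other U1 and U2 genes to 113 ± 12.04 and 117 ± 13.2 CPM. The ages overlapped in all 5 sums, as the plot of summed levels shows. No test was made of these sums, because the members were chosen with results known.

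**Figure D2:**
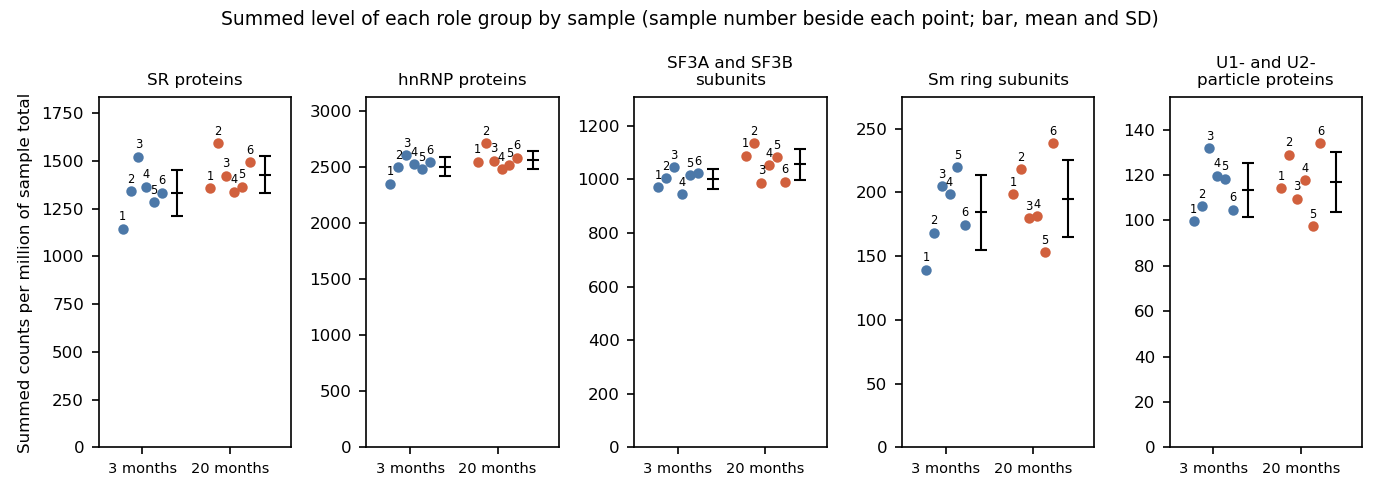
Summed level of each role group in CPM (vertical axes, each from 0) in the 6 young and 6 aged samples, with the sample number beside each point and bars for mean and SD. Young 1 is the lowest young sample in the SR, hnRNP, Sm ring and U1 and U2 sums, and the points of the ages overlap in each panel.

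Values varied from sample to sample within each age, and among the role groups the Sm ring had the widest swings. The median deviation of the tested Sm genes from their own 12-sample mean was -0.63 on the log2 scale in aged 5, -0.35 in young 1 and -0.26 in young 2. It was 0.41 in young 5, 0.39 in aged 2 and 0.34 in aged 6. High and low samples thus occurred at both ages. The hnRNP median stayed between -0.05 and 0.05 in all 12 samples. Of the 48 tested members, 15 had their lowest value in aged 5 and 10 in young 1, and 11 had their highest value in aged 2 and 9 in young 3.

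Ribosomal protein genes and genes with little exon sequence were high and low in the same samples as the Sm ring. The 75 ribosomal protein genes had median deviations of -0.74 in aged 5, -0.41 in young 1, 0.30 in young 5 and 0.62 in aged 2. The 394 tested genes with less than 1000 bases of annotated exon had -0.44, -0.25, 0.19 and 0.31 in the same samples. The 10180 longer genes stayed between -0.0031 and 0.03 in all samples. They make up most genes, and the counts are normalized between samples, so their median is expected to lie near 0. The members were left out of both length classes. By annotated exon the tested Sm genes, at 1055 to 3036 bases, would fall in the longer class. The main transcripts of Snrpe and Snrpd1, however, have 503 and 858 bases. Snrpf, with 861 bases, was not tested and is not in the Sm median. Aged 5 carries a strain label of its own and young 1 is the shallowest of the samples with 1 library. The part of transcript length, strain label and depth in the members' values was not tested.

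**Figure D3:**
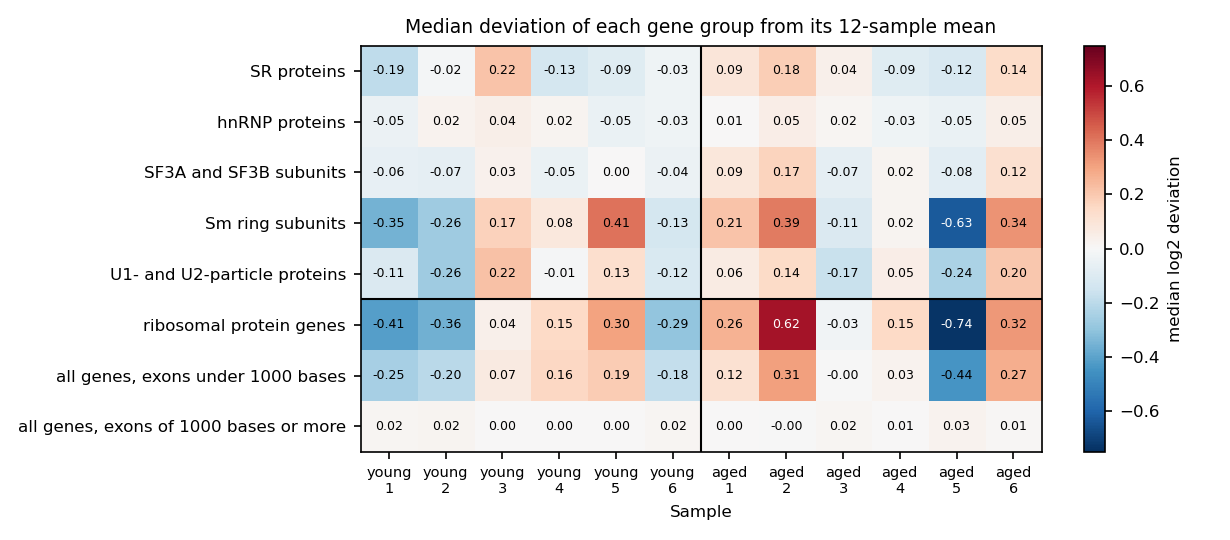
Median log2 deviation of each gene group from its own 12-sample mean (colour and printed value), with the 5 role groups above the line and ribosomal protein genes and all tested genes by exon length below it; columns are the 6 young and 6 aged samples. The Sm ring row has its lowest value, -0.63, in aged 5, the same column as the ribosomal protein genes at -0.74.

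Levels were set side by side per kilobase of annotated exon, the joined exons of the transcripts that GENCODE tags as basic and protein-coding. This scale depends on the annotation. The length equals the main transcript for Snrpb, at 1161 bases, but is 1372 against 503 for Snrpe and 5222 against 1654 for Hnrnpa3. On that scale Srsf9 was highest, at 4903 normalized counts per kilobase over all 12 samples, followed by Hnrnpk at 3878, Srsf5 at 3824, Snrpb at 3209, Hnrnpa2b1 at 3194 and Srsf2 at 2281. The SF3B subunits Sf3b1 and Sf3b2 stood at 1651 and 1621. By role the median was 1001 for SR proteins, 893 for SF3A and SF3B, 664 for hnRNPs, 432 for the other U1 and U2 proteins and 158 for the Sm ring. Among the tested Sm genes, Snrpb was at 3209 and the others at 114 to 194 per kilobase. Snrpb shared 0.09% of its 50-base windows with other genes, and the others from 5.46% (Snrpd3) to 28.4% (Snrpe). The part of this in their levels was not tested. At the low end were Hnrnpul2 at 37.7, Hnrnpa3 at 27.4, Snrpf at 11.3, Hnrnpa1 at 5.09 and Srsf12 at 0.417 per kilobase. The plot of levels per kilobase shows the young and aged means of nearly every member side by side.

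**Figure D4:**
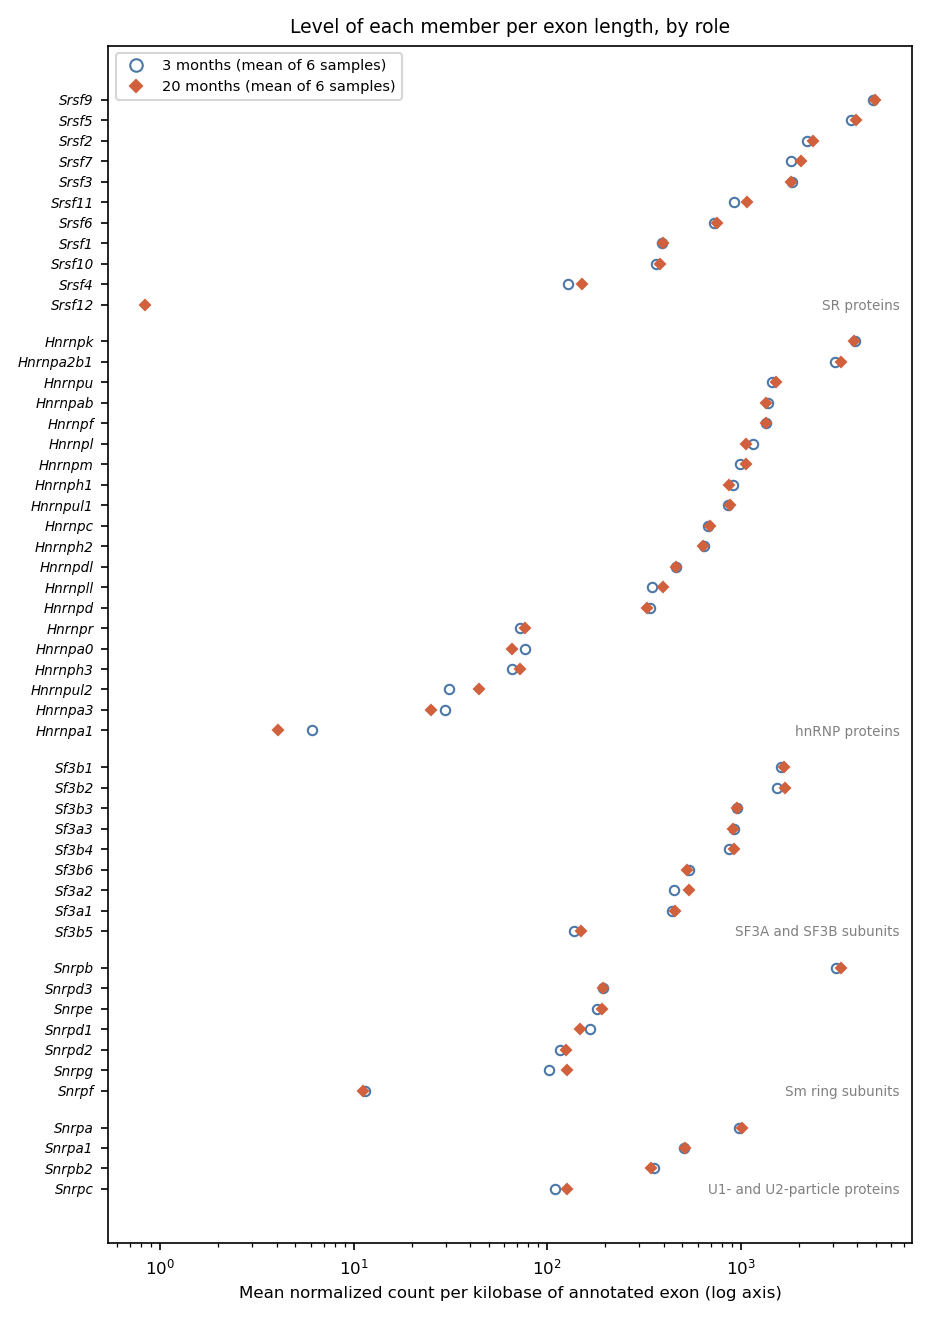
Mean normalized count per kilobase of annotated exon (horizontal log axis) of each member at 3 months (open circles) and 20 months (diamonds), mean of 6 samples each, ordered within each role. Srsf9 is highest at 4903 over both ages; the young mean of Srsf12 is 0 and is not drawn on the log axis.

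The 3 members that were not tested differ in how much sequence they share with other genes. Hnrnpa1, which in many cells is among the most abundant hnRNPs, ran from 2.31 to 23.2 normalized counts in young samples (median 11.1) and from 1.03 to 14.3 in aged ones (median 8.28). Values were low in all 12 samples and overlapped between the ages. Of the 50-base windows of its main transcript, 46.4% also occur in transcripts of 19 other genes, 18 of them processed pseudogenes, among them Gm10052 shown above. Snrpf, the SmF gene, ran from 3.47 to 19.8 (median 5.66) and from 2.05 to 17.1 (median 9.43). Some 89.5% of its windows are shared, 58.5% with Ccdc38, a gene annotated on the opposite strand. These libraries do not mark the strand.

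Srsf12 stood at 0 in 11 samples and at 14.7 normalized counts, or 17 reads, in aged 1. In the young samples with 1 library, the 3 reads that a count of 0 allows correspond to 1.697 to 7.37 normalized counts. Srsf12 shares no 50-base window with another gene.

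Across all members, shared sequence and level went together for some genes and not for others. The 6 members with 40% or more of their windows shared had a median level of 83.4 per kilobase, and the 45 with less had 643. This gap depends on the cut. Next below it came Hnrnpk (37.8% shared) at 3878, Srsf2 (35.2%) at 2281, Srsf3 (31.5%) at 1841 and Snrpa (31.1%) at 995. Srsf5 (29.2%) followed at 3824, Hnrnpm (28.8%) at 1031 and Snrpe (28.4%) at 187. Hnrnpa3 shared 91.0% of its windows, with 46 genes of which 41 are processed pseudogenes, and stood at 27.4 per kilobase. Hnrnpf, however, shared 67.3% and stood at 1351, and Hnrnpk shared 37.8% and was the highest hnRNP. Hnrnpa2b1, whose closest copy is also shown above, shared 2.44%. Among the 8 members under 100 per kilobase, 3 shared 40% or more and 2 shared under 1%. How reads that fit several places were counted is not given in the sources used here, and the part of shared sequence in these levels was not tested.

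**Figure D5:**
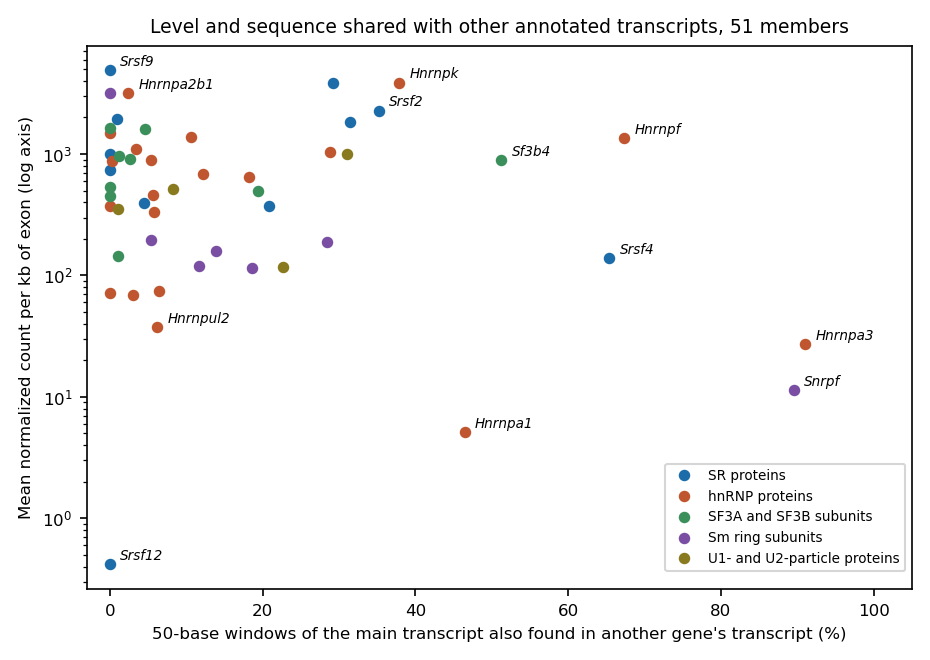
Mean normalized count per kilobase of exon (vertical log axis) of each of the 51 members against the share of 50-base windows of its main transcript that also occur in another gene's transcript (horizontal axis, percent), coloured by role. Hnrnpa3 and Snrpf lie at the right and low, at 91.0% and 89.5%, while Hnrnpf at 67.3% is among the higher members.

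Exons of 20 members overlap annotated exons of other genes, 16 of them on the opposite strand, and for Hnrnpab, Hnrnpf, Hnrnpm, Snrpf, Srsf2 and Srsf4 the overlap covers over 20% of the exon length. Reads from these overlaps may have been counted for the member, for its neighbour or for neither. The strand is not marked, and for Hnrnpm the overlapping gene, March2, lies on the same strand.

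The annotation shows how many members have splice forms that a count per gene cannot resolve. A transcript marked for nonsense-mediated decay is annotated for 9 of the 11 SR genes (81.8%), 10 of the 20 hnRNPs, 1 of the 9 SF3 subunits and 2 of the 7 Sm genes. For all members it is 24 of 51, and for tested genes matched to the annotation 3214 of 10624 (30.25%). A retained-intron transcript is annotated for 38 members (74.5%), against 61.0% of tested genes. These are features of the annotation, and which forms were present in the microglia was not analysed here.

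Other genes of the splicing machinery were read from the same fit. Of 195 genes listed in 6 related groups, 186 were tested and 0 were called by limma, against 1.73% of all genes. A limma unadjusted p under 0.05 was found for 9 (4.84%), against 10.8% of all genes. None of 63 other core spliceosome genes was called, and their median log2 difference was 0.03. The smallest p belonged to Prpf39, a partner of the U1 particle, which ran from 1053 to 1622 normalized counts (median 1222) in young and from 1449 to 1778 (median 1597) in aged samples, with a limma adjusted p of 0.129. The ages overlapped in Prpf39, and its log2 difference was 0.34 ± 0.10.

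Of 26 SR protein kinases and partners, 0 were called. Differences were above 0 in 20 of these 26, in 36 of the 63 core spliceosome genes, 22 of 42 other regulators, 8 of 14 minor spliceosome genes, 7 of 20 snRNP assembly genes and 10 of 21 decay and exon junction genes, against 50.5% of all genes tested. Srrm1, a splicing coactivator that works with SR proteins, had a log2 difference of 0.21 ± 0.08 (limma adjusted p = 0.253). None of 42 other splicing regulators, 14 minor spliceosome genes, 20 snRNP assembly genes or 21 genes of nonsense-mediated decay and the exon junction was called. Celf4, an RNA-binding splicing regulator best known from neurons, had the smallest p of the other regulators and ran from 56.0 to 115 normalized counts (median 84.1) in young and from 91.5 to 130.2 (median 115) in aged samples. The ages overlapped, and its log2 difference was 0.44 ± 0.19 (limma adjusted p = 0.395). Armc7, which had the smallest p of the minor spliceosome list, had groups that did not overlap, as did 1.87% of all genes tested. All 6 aged samples, at 1694 to 1838 normalized counts (median 1797), lay below all 6 young samples, at 1856 to 2244 (median 2021). Its log2 difference was -0.20 ± 0.07 with a limma adjusted p of 0.239. Kpnb1, the import receptor for assembled particles, and Smg8, a regulator of decay, had the smallest p of the last lists, with log2 differences of -0.17 ± 0.09 and -0.13 ± 0.08.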

How the data were processed

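RNA was measured in 12 samples of sorted hippocampal microglia, 6 per age, from 16 libraries made with SmartSeq v4 and Nextera XT kits, which do not mark the strand, per the labels' protocols. The authors deposited 1 table of normalized counts per gene, a signal that is never negative. The build is mm10, and bcl2fastq, STAR, SAMtools and DESeq2 were used, per the submitters' processing notes. The sources used here do not give their versions, the annotation or the handling of reads that match several places. In the 8 columns with 1 library, 100% of values were whole multiples of 1 step (within 0.1 read), and whole reads were recovered from 7 of them. In the remaining one the step was too close to 1 to be told from whole counts.

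The test was limma 3.58.1 (R 4.3.3) with trended variance on log2 of the deposited normalized count plus 1. A gene was tested where at least 6 samples reached 10 normalized counts, 11579 in all, and p-values were adjusted by Benjamini-Hochberg over all of them, two-sided, at 0.05. The pseudocount understates changes of low genes. edgeR 4.0.16 (quasi-likelihood) and DESeq2 1.42.0 were run on the recovered reads. Errors of levels are SDs and errors of log2 differences are SEs. Scripts were tested on simulated data. Fully described genes were, in each role, the 3 with the smallest p and the one with the highest mean, and in each related list the genes past the threshold. As there were none of these, the gene with the smallest p in each related list was named after its values were seen, as were the other members mentioned. Members and lists were chosen with earlier results of these data known. Levels per kilobase, overlaps, windows of 50 bases and sequences use GENCODE M21, and the strand was ignored when windows were matched. Alternatives covered the pseudocount, filter, scaling, weights, sample sets, a marker covariate and the count tests.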

Additional observations from a re-analysis of the deposited data

Results flagged for a closer look

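The named members, the untested members and the role sums, each in young and in aged samples, gave 54 groups of 6 values. They were checked for 1 sample far from the rest, except the young Srsf12 group, which was 0 throughout, and 2 stood out. Chance would flag about 1 group in 20. Snrpa, the U1-A gene, was lowest in aged sample 5, at 1197 normalized counts, where the next lowest aged sample had 1612, a gap of 0.740 of the whole range. That sample also had the lowest median deviation of the Sm ring genes, -0.63 on the log2 scale. Srsf12 was highest in aged sample 1, at 14.7 normalized counts, where the other 5 aged samples had 0. The check always flags a single value above 0 among zeros, so the chance rate does not apply to it. No cause was tested for either value.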

How the results depend on the processing

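Under 28 alternatives, 0 members were called higher and 0 lower. The number of all genes called was 200 in the analysis reported. It was 78 with limma on the 8 samples with 1 library, 102 with edgeR on recovered reads, 93 with the marker covariate and 88 with limma on the 7 samples with recovered reads, an alternative added after seeing the data. With 1 sample left out, all genes called ranged from 134 to 235, the median log2 difference of members from 0.02 to 0.07, and members called from 0 to 0. Of 504 values of the 18 named members under these alternatives, 493 kept their direction and 11 reversed, all of them without a call. Hnrnpk was 0.0089 after quantile normalization, Srsf5 -0.0058 without aged 2 and -0.10 with the marker covariate, and Sf3b1 -0.0016 without aged 5. With 1 sample left out, Srsf5 ranged from -0.0058 to 0.17 and Sf3b1 from -0.0016 to 0.10. Sf3b4 was -0.073 with edgeR, -0.070 with DESeq2 and -0.051 with limma on the same 7 samples. Snrpc was -0.25, -0.23 and -0.13 and Snrpg -0.035 with limma. The cause of these reversals was not tested. Sample numbers are shared by the ages, and a replicate block on them called 0 members and 145 genes in all. Correlations of same-numbered samples ran from -0.12 to 0.11 and 1 of 6 young samples matched its own number best, so the numbers were not taken as pairs. Precision was lowest for members under 1000 normalized counts, of which 8 of 15 had intervals within 1.5-fold. The part of depth in this was not tested.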

Other observations

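Related members differed widely in level per kilobase of exon, as means over all 12 samples. Among the relatives that bind G-rich RNA, Hnrnpf stood at 1351 normalized counts per kilobase, Hnrnph1 at 892, Hnrnph2 at 643 and Hnrnph3 at 69.0. Hnrnpul1 stood at 871 and Hnrnpul2 at 37.7. Hnrnpl stood at 1109 and Hnrnpll at 374. The pair Hnrnpd and Hnrnpdl was closer, at 333 and 464. Among SR proteins, Srsf9 stood at 4903 and its close relative Srsf1 at 394, a gap that includes a difference in the length used. Srsf1 has 5558 bases of annotated exon but a main transcript of 1209, while both are 1162 for Srsf9. Before division by length, their means at 3 months were 5611 normalized counts for Srsf9 and 2180 for Srsf1. Annotated exon length joins the exons of all basic protein-coding transcripts of a gene, and Hnrnpr, with 21483 bases of it, stood at 74.6. These levels are descriptions and no test was made of them.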
